A study of Mus musculus with 10 samples.

Results

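Class II myosins are the motors of contraction, and 8 of their genes are described here in the mouse aorta, of 35667 genes counted in all. They were chosen by gene symbol as the myosins II of smooth muscle and non-muscle cells: 4 heavy chains (Myh9, Myh10, Myh11 and Myh14), 3 regulatory light chains (Myl9, Myl12a and Myl12b) and 1 essential light chain (Myl6). RNA sequencing had been done on 10 libraries of aorta from C57BL/6 mice aged 12 weeks, 5 labelled knockout for Ovgp1 (KO) and 5 labelled wild type (WT). Ovgp1 encodes oviductal glycoprotein 1, and the title of the series concerns its interaction with the Myh9 product, hypertension and remodelling of the vessel wall. Titles and design give Ovgp1 as the target in every KO library, whereas the genotype entries read Ovgp1 in KO replicate 1 alone and Ovgp2 to Ovgp5 in KO replicates 2 to 5. The labels do not say how the allele was made, whether animals were pooled, or whether each library is of its own animal, so the p-values below measure the spread between these libraries, which may be technical.

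A class II myosin is a pair of heavy chains, each with an ATP-driven motor head and a long tail that assembles into filaments, and each head carries an essential and a regulatory light chain. In smooth muscle, calcium and calmodulin switch on myosin light chain kinase, which phosphorylates the regulatory light chain and so allows the head to pull on actin, while a phosphatase reverses the step. Myh11 is the smooth muscle heavy chain that makes most of the force of the arterial wall, and the non-muscle heavy chains IIA (Myh9), IIB (Myh10) and IIC (Myh14) act in cell shape, adhesion and migration.

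The libraries held 24434745 to 26694590 counts each under the KO label and 21242030 to 24396394 under the WT label. Those labelled KO were nearly identical to one another: the biological coefficient of variation, the spread between libraries beyond counting error, was 2.82% among them and 21.3% among those labelled WT. The KO libraries still differed by more than counting error, though far less than the WT libraries (chi-square per degree of freedom of 1.77 to 3.25 between pairs of KO libraries and 11 to 154 between pairs of WT libraries). Beside each comparison of 5 with 5 libraries stands one that adds the KO counts up into 1 sample, whose spread is taken to be that of WT. Ovgp1, the targeted gene, was at 17.8 to 21.9 CPM (counts scaled to the size of the library, adjusted by TMM factors) in the KO libraries and at 1.98 to 4.69 CPM in the WT libraries, which goes against the KO label. Every direction below follows the labels, so KO stands for a library labelled KO throughout. The 10 smooth muscle markers summed to 30660 to 31200 CPM under the KO label and 21960 to 33960 CPM under the WT label. Acta2, smooth muscle actin, carried most of this, at 22660 CPM in the mean of the KO libraries and 19870 CPM in that of the WT libraries, while Tagln, Myocd and Pln were low, with 3.30 CPM of Pln in KO and 3.02 CPM in WT.

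The regulatory light chains are told apart by few bases, and they share the site that the kinase acts on. Coding bases 31 to 90 are shown for each, 5′ to 3′, from GENCODE M21 transcripts of GRCm38, with capitals for the codons of threonine 18 and serine 19, the phosphorylated residues, counted after the first methionine.
Myl9: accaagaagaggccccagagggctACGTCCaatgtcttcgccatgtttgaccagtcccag
Myl12a: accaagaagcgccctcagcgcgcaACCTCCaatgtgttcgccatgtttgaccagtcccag
Myl12b: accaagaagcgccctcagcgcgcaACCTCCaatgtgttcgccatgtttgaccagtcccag
The Myl12a and Myl12b windows are identical. Over all 516 coding bases this pair differs at 18, with an unbroken identical run of 102 bases, so short reads from it can be assigned to either gene and the split between them is uncertain. Myl9 differs from Myl12a at 74 coding bases and from Myl12b at 70. The 3 genes encode proteins of 172 residues each.

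The heavy chains diverge more. Myh9 and Myh10 are identical in 74.4% of aligned coding bases and 77.5% of residues, and their longest identical stretch, 122 bases, is shown because a read that lies inside it could belong to either gene. It spans coding bases 1381 to 1502 of Myh9 and 1513 to 1634 of Myh10, in the longest annotated coding sequence of each. A shorter annotated form of Myh10 lacks coding bases 4 to 114, so the stretch starts earlier in it.
Myh9 and Myh10: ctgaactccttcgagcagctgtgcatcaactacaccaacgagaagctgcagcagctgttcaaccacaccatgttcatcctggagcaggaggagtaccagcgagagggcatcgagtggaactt
Myh11 has an alternative exon in the motor head, which is known to separate a faster from a slower smooth muscle myosin. Its 21 bases, coding bases 634 to 654, are in capitals between 18 bases of flank on each side. The deposited counts sum over the whole gene and do not separate the forms with and without it.
Myh11: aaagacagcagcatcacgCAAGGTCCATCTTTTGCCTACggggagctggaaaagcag

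Of the 8 myosin II genes, Myh10 rose in the libraries labelled KO and the other 7 did not pass the test. Each gene was tested with edgeR's quasi-likelihood test over all 15710 genes with enough counts, with Benjamini-Hochberg adjusted p-values and a threshold of 0.05. Over all tested genes 6.84% rose and 7.43% fell, so 1 of 8 is near the background. At an unadjusted p under 0.05, Myh10 was higher and Myl6 was lower. DESeq2 also called 1 member higher and 0 lower, against 1478 higher and 1497 lower over all 15710 tested genes. Limma-voom with sample weights called 3 members higher and 0 lower, against 2995 higher and 3482 lower over all tested genes. The median log2 difference was 0.041 over the 8 members and -0.0232 over all tested genes. With the KO counts as 1 sample, 0 of 8 members passed in edgeR, against 0.0446% of all tested genes, and 0 had an unadjusted p under 0.05, against 585 of the 15710. Of all tested genes 7.22% had each KO library below each WT library, and of the members 0 did. Together the 8 genes made 2.10% to 2.12% of all counts in the KO libraries and 1.72% to 2.25% in the WT libraries.

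**Figure D1:**
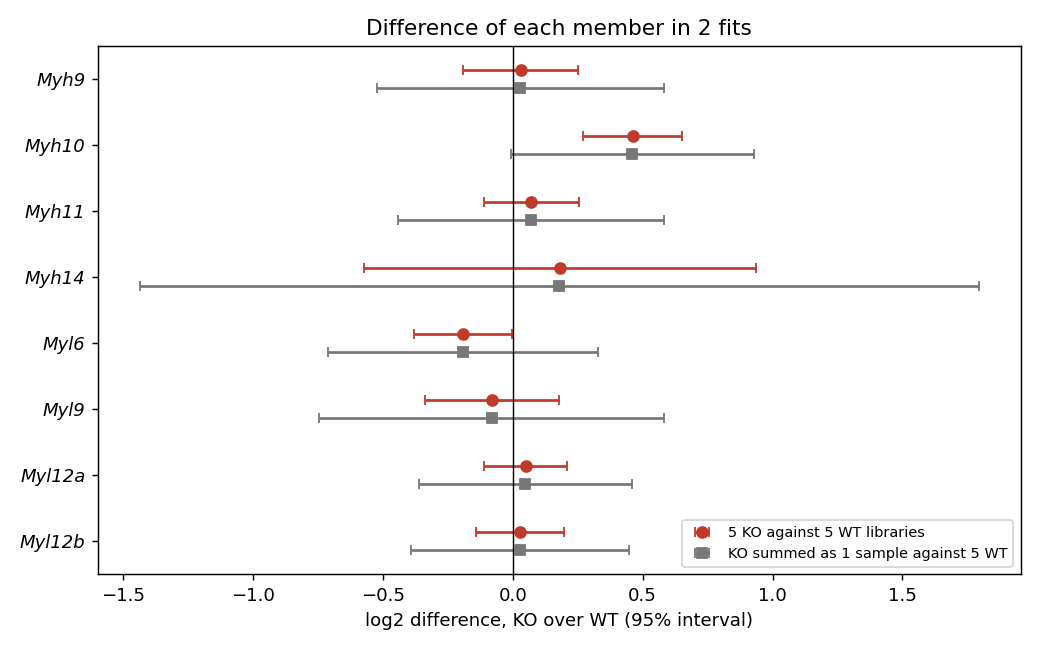
Log2 difference in CPM, KO over WT, of each of the 8 myosin II genes with its 95% interval, from 5 KO against 5 WT libraries and from the KO counts summed as 1 sample. The interval of Myh10 lies above 0 in the 5 against 5 comparison, at 1.21- to 1.57-fold, and reaches 0.995-fold with KO as 1 sample.

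Myh10, the heavy chain of non-muscle myosin IIB, lies on the plus strand of chromosome 11 (68691559 to 68816632, GRCm38; ENSMUSG00000020900). It was measured at 549, 552, 551, 543 and 555 CPM in KO replicates 1 to 5, and at 477, 380, 443, 337 and 360 CPM in WT replicates 1 to 5. Each KO library was above each WT library, as was the case for 7.38% of tested genes, and WT replicate 1 came nearest to the KO libraries. The mean was 550 ± 4.51 CPM in the KO libraries and 399 ± 58.7 CPM in the WT libraries (SD, n = 5 each). This is a log2 difference of 0.46 (SE 0.09, edgeR adjusted p = 0.00604), or 1.38-fold with a 95% interval of 1.21 to 1.57. With KO as 1 sample the fold was 1.38 with an interval of 0.995 to 1.90, an unadjusted p of 0.0529 and an adjusted p of 0.999 in edgeR. In units of the WT spread, the KO mean lay 2.57 SD above the WT mean. The call held without any one library, with a log2 difference between 0.41 and 0.55. In whole tissue, a change in the number of cells of a type and a change in RNA per cell cannot be told apart. This holds here and in every result that follows.

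Myh9, the heavy chain of non-muscle myosin IIA and the one named in the title, lies on the minus strand of chromosome 15 (77760587 to 77842175, GRCm38; ENSMUSG00000022443). It was at 645, 633, 654, 662 and 645 CPM in KO replicates 1 to 5 and at 609, 469, 660, 747 and 685 CPM in WT replicates 1 to 5. The groups overlapped throughout, with the lowest and the highest value both in WT libraries. Means were 648 ± 10.7 CPM in the KO libraries and 634 ± 105 CPM in the WT libraries (SD, n = 5 each), a log2 difference of 0.03 (SE 0.10, edgeR adjusted p = 0.876), and the 95% interval of the fold ran from 0.877 to 1.19. With KO as 1 sample that interval ran from 0.696 to 1.5, so this fit does not tell apart folds within that range. Without WT replicate 2, the library with the lowest Myh9, the log2 difference was -0.05, so its sign rests on that library.

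Myh11, the smooth muscle heavy chain, lies on the minus strand of chromosome 16 (14194535 to 14291372, GRCm38; ENSMUSG00000018830). It was at 9124, 9043, 9098, 9086 and 9032 CPM in KO replicates 1 to 5 and at 9616, 8714, 9701, 7229 and 7949 CPM in WT replicates 1 to 5. The KO libraries lay inside the WT range, and WT replicates 4 and 5 were the lowest. Means were 9077 ± 38.4 CPM in the KO libraries and 8642 ± 1067 CPM in the WT libraries (SD, n = 5 each), with a log2 difference of 0.07 (SE 0.08, edgeR adjusted p = 0.620). The 95% interval of the fold was 0.925 to 1.19. Mitochondrial genes took 7.61% to 7.88% of counts in the KO libraries, against 16.2% in WT replicate 1, 13.2% in WT replicate 3 and between 6.75% and 9.59% in WT replicates 2, 4 and 5. Without WT replicates 1 and 3, the log2 difference of Myh11 was 0.20 and passed the test (edgeR adjusted p = 0.0429). The part of the mitochondrial share in this was not tested.

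Myh14, the heavy chain of non-muscle myosin IIC, lies on the minus strand of chromosome 7 (44605803 to 44670843, GRCm38; ENSMUSG00000030739) and was close to the floor of detection, with 36 to 56 counts per library under the KO label and 11 to 55 under the WT label. Values were 1.95, 1.77, 1.35, 1.32 and 2.07 CPM in KO replicates 1 to 5 and 1.09, 0.470, 1.35, 2.26 and 2.28 CPM in WT replicates 1 to 5. The groups overlapped, and the lowest value was in WT replicate 2. The fold was 1.13 with a 95% interval of 0.672 to 1.91 (edgeR adjusted p = 0.771), and the log2 difference was -0.04 without WT replicate 2, against 0.18 with it.

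**Figure D2:**
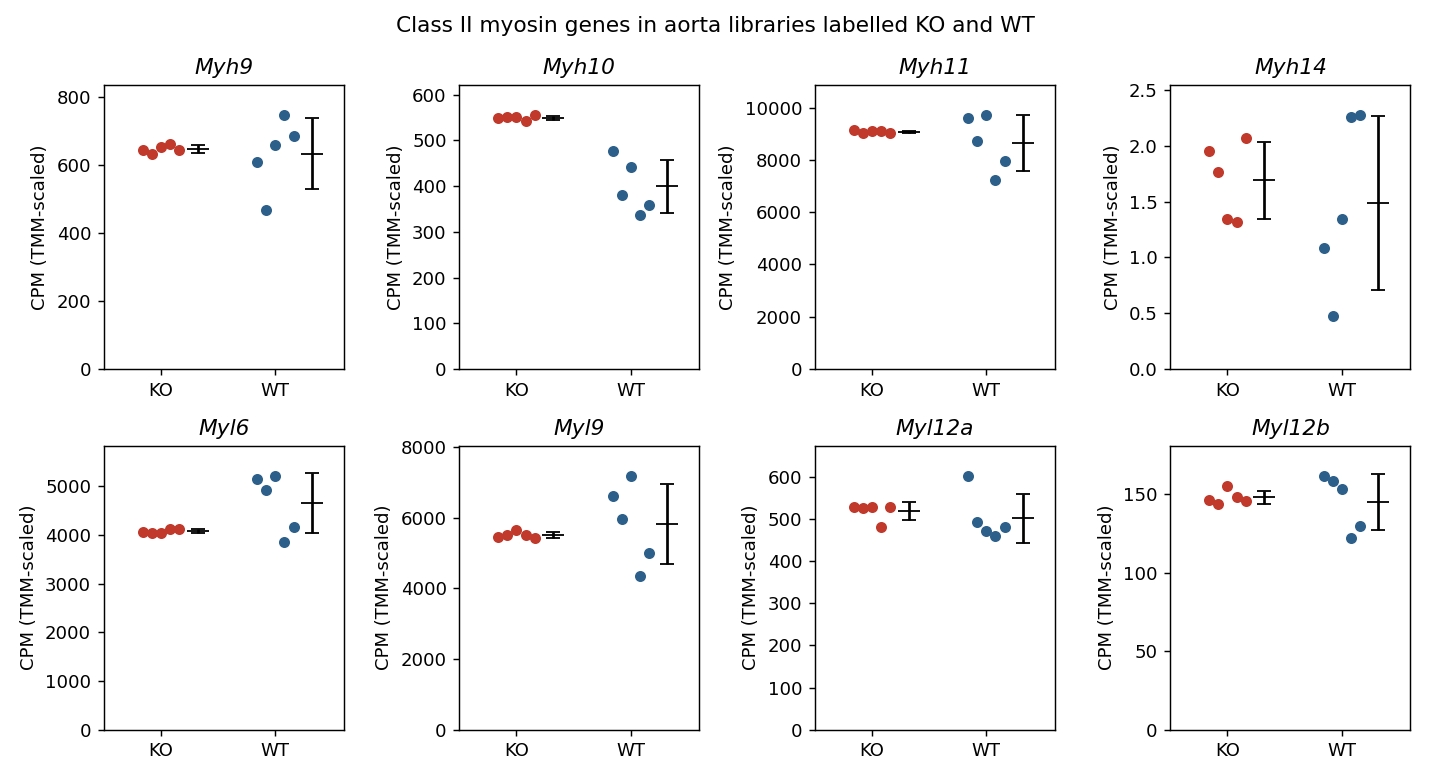
TMM-scaled CPM of the 8 myosin II genes in each library, 1 panel per gene with its own axis from 0, the KO libraries at the left and the WT libraries at the right of each panel; points are libraries and bars show the mean and SD (n = 5 each). Myh10 is the gene whose KO points, at 543 to 555 CPM, all lie above its WT points, at 337 to 477 CPM.

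To compare levels between genes, CPM were divided by the length in kilobases of each gene's longest annotated coding transcript. On this scale the order in the KO libraries was Myl9, Myl6, Myh11, Myl12a, Myh9, Myh10, Myl12b and Myh14, with means of 4889, 2445, 1386, 268, 87.1, 70.6, 69.0 and 0.260 CPM per kilobase. Means in the WT libraries were 5166, 2792, 1320, 259, 85.3, 51.3, 67.6 and 0.229 CPM per kilobase in the same order of genes. Myh10 and Myl12b overlapped in the KO libraries, at 69.7 to 71.2 and 67.2 to 72.4 CPM per kilobase, as did Myl12b with Myh9 and with Myh10 in the WT libraries. Within single libraries, Myl12b was below Myh10 in each KO library except replicate 3, and above Myh10 in each of the 5 WT libraries. These orders depend on the length used. With all annotated exons joined (exon union), Myh10 made 50.4% to 51.9% of the sum of Myh9 and Myh10 in the KO libraries, above Myh9. Coding bases are 516 of 2143 in Myl12b, against 5880 of 7433 in Myh9 and 6039 of 7791 in Myh10. Coding length therefore places Myl12b higher against both.

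Of the heavy chain transcripts, counted per length, Myh11 made 89.8% ± 0.0656 in the KO libraries and 90.5% ± 1.45 in the WT libraries (SD, n = 5 each). Myh10 made 4.54%, 4.61%, 4.57%, 4.51% and 4.63% in KO replicates 1 to 5, and 3.80%, 3.38%, 3.49%, 3.46% and 3.41% in WT replicates 1 to 5. The groups did not overlap, and the gap between them was wider against the WT spread than that of the Myh10 level itself. The means, 4.57% in the KO libraries and 3.51% in the WT libraries, lay 1.06 percentage points or 6.36 WT SD apart. As Myh11 makes most of the sum, this share is close to the ratio of Myh10 to Myh11. On the ratio to Myh11, 3.61% of tested genes had every KO library above every WT library. Myh9 made 5.64% ± 0.0829 in the KO libraries and 5.96% ± 1.47 in the WT libraries, where single libraries ran from 4.38% in replicate 2 to 8.05% in replicate 4. The share of Myh10 in the sum of Myh9 and Myh10 was 43.9% to 45.4% in the KO libraries and 30.1% to 43.6% in the WT libraries. Myh14 made 0.0169% and 0.0164% in the mean of the KO and of the WT libraries. These shares are a description, with no test.

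**Figure D3:**
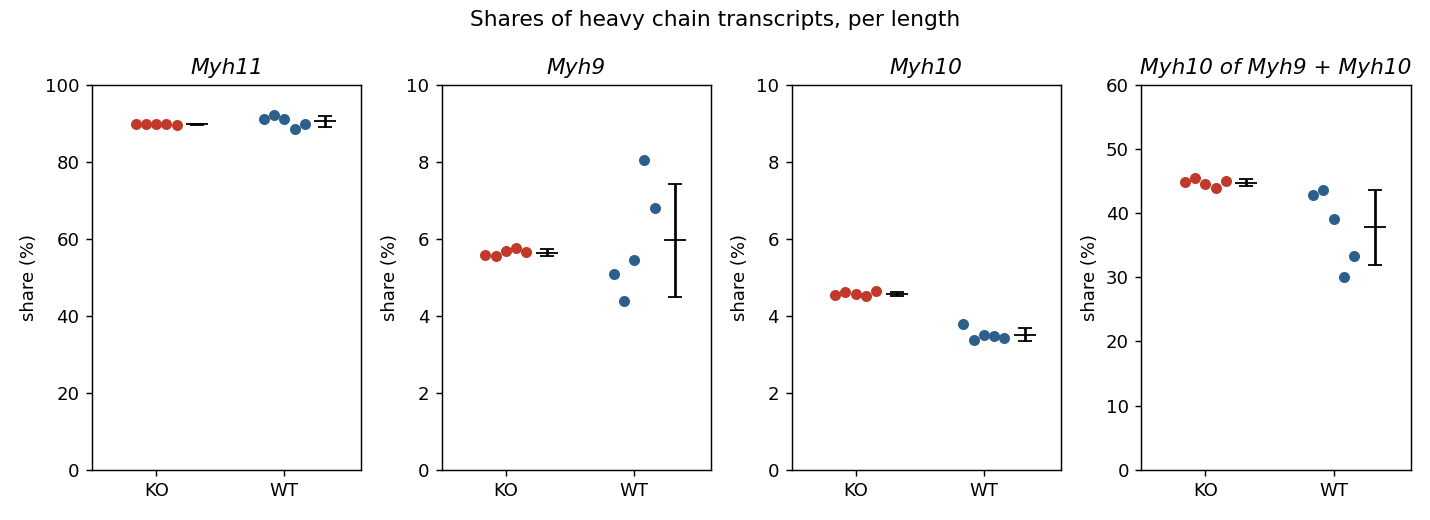
Percent of heavy chain transcripts (CPM per kilobase of the longest coding transcript) in each library, KO libraries at the left and WT libraries at the right. Myh10 takes 4.51% to 4.63% in the KO libraries and 3.38% to 3.80% in the WT libraries, and the Myh9 share varies most among the WT libraries.

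Set against Myh11 within each library, Myh10 and Myl6 separated the groups in opposite directions. Myh10 had 59.7 to 61.4 reads for each 1000 of Myh11 in the KO libraries and 43.6 to 49.6 in the WT libraries. Of 15709 tested genes, 3.61% had every KO ratio above every WT ratio. Myl6 had 445, 446, 445, 453 and 457 reads for each 1000 of Myh11 in KO replicates 1 to 5, and 535, 564, 537, 533 and 525 in WT replicates 1 to 5, with each KO library below each WT library, as was the case for 8.81% of tested genes. The other 5 members overlapped between the groups on this ratio. The ratio was chosen after the values were seen and has no test.

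Myl6, the essential light chain that myosins of smooth muscle and non-muscle cells share, lies on the minus strand of chromosome 10 (128490860 to 128494145, GRCm38; ENSMUSG00000090841). It was at 4065, 4036, 4045, 4116 and 4127 CPM in KO replicates 1 to 5 and at 5143, 4916, 5206, 3850 and 4171 CPM in WT replicates 1 to 5. WT replicates 1 to 3 lay above all other libraries, WT replicate 5 just above the KO libraries and WT replicate 4 below them. The mean was 4078 ± 41.5 CPM in the KO libraries and 4657 ± 611 CPM in the WT libraries (SD, n = 5 each), with a log2 difference of -0.19 (SE 0.09) and a fold of 0.876 (95% interval 0.769 to 0.997). The unadjusted p was 0.0462 and the edgeR adjusted p 0.162, and with KO as 1 sample the interval was 0.611 to 1.26. Without WT replicate 4 the log2 difference was -0.25 and passed (edgeR adjusted p = 0.0316). Reads may be shared with 5 processed pseudogenes of near-identical sequence, whose counts came to 3.80% to 4.55% of those of Myl6 in the KO libraries and 3.80% to 4.93% in the WT libraries.

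Among the regulatory light chains, Myl9, the form typical of smooth muscle (chromosome 2, 156775420 to 156781658, plus strand, GRCm38; ENSMUSG00000067818), was at 5443 to 5665 CPM in the KO libraries and at 4365 to 7183 CPM in the WT libraries, with WT replicates 4 and 5 lowest. Its means were 5515 ± 89.6 CPM in the KO libraries and 5827 ± 1147 CPM in the WT libraries (SD, n = 5 each), a log2 difference of -0.08 (SE 0.12, edgeR adjusted p = 0.702). Its sign turned without WT replicate 3 (0.01) and with total counts in place of TMM factors (0.01). Myl9 made 93.6% of regulatory light chain transcripts, per length, in the KO libraries and 93.9% in the WT libraries.

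Myl12a (chromosome 17, 70993656 to 71002878, GRCm38; ENSMUSG00000024048) and Myl12b (chromosome 17, 70973133 to 70990890; ENSMUSG00000034868), the regulatory light chains found across most cell types, are neighbours on the minus strand. Myl12a was at 482 to 529 CPM in the KO libraries and at 460 to 601 CPM in the WT libraries, with a fold of 1.04 (95% interval 0.925 to 1.16, edgeR adjusted p = 0.702). Myl12b was at 144 to 155 CPM in the KO libraries and at 122 to 161 CPM in the WT libraries, with a fold of 1.02 (0.908 to 1.15, edgeR adjusted p = 0.845). The groups overlapped for both. The log2 difference of Myl12b, 0.03, was -0.03 without WT replicate 4 and -0.01 without WT replicate 5. Myl12a overlaps Myom1 on the opposite strand, which had 21167 to 32728 counts per library, and the sources used here do not say whether reads were counted by strand.

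Across the WT libraries the members did not all follow one order. Myh11, Myh10, Myl6, Myl9, Myl12a and Myl12b each had their lowest level in WT replicate 4, while Myh9 was highest there and lowest in WT replicate 2, and Myh14 was also lowest in replicate 2. WT replicates 4 and 5 also held the most fat marker RNA: the 7 white adipocyte markers summed to 800 to 832 CPM in the KO libraries and 540 to 1947 CPM in the WT libraries, with 1947 and 1510 CPM in WT replicates 4 and 5. The 7 brown adipocyte markers summed to 203 to 218 CPM in the KO libraries and 55.2 to 841 CPM in the WT libraries, with 841 and 614 CPM in these replicates. Every marker had counts. In edgeR 0 of the white and 0 of the brown markers passed, with 0 and 1 at an unadjusted p under 0.05. DESeq2 called 0 and 1 of them and limma-voom 2 and 5, all lower in the KO libraries. Over all 15710 tested genes DESeq2 called 2975 and limma-voom 6477. The part of the fat markers in the pattern was not tested.

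**Figure D4:**
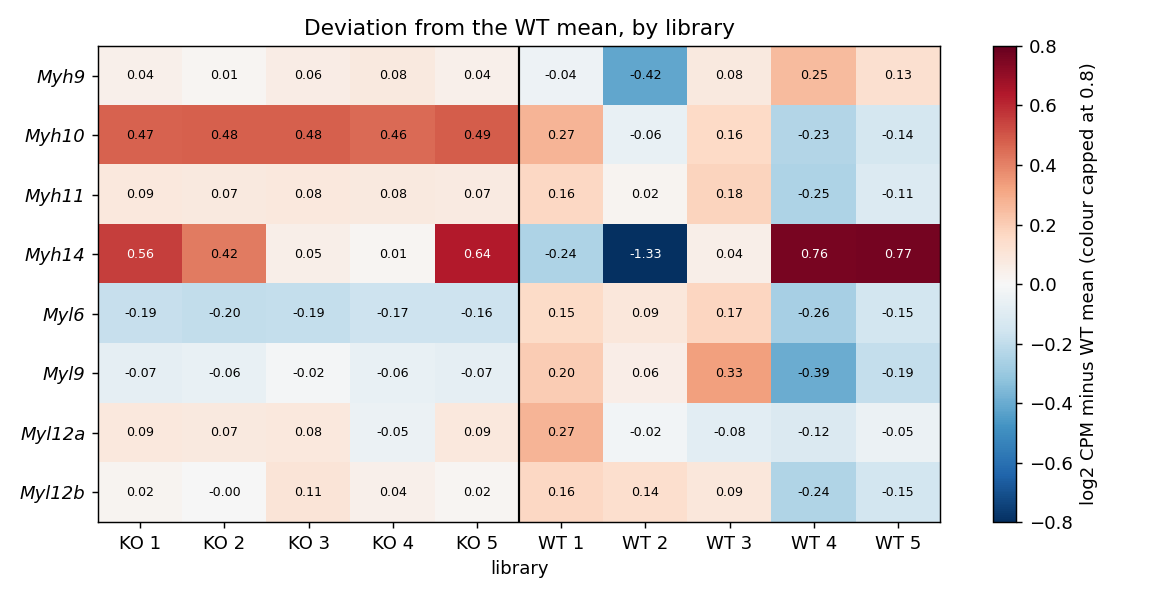
Log2 deviation of each myosin II gene (rows) from its WT mean in each library (columns, KO libraries left and WT libraries right), with colours capped at 0.8. WT replicate 4 is low for Myh11, Myh10 and the light chains and high for Myh9, and the KO columns look alike.

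Likeness of pattern was measured as the root mean square difference of centred log2 CPM over 6 points, the 5 WT libraries and the KO mean, among 9932 genes. Nearest to Myh11 were Csrp1, a LIM protein of smooth muscle (0.030), Oaz2 (0.032) and Ly75 (0.033), against a spread of 0.151 of Myh11 itself. Of the members, Myl12b stood nearest to Myh11 (0.063), followed by Myl6 (0.103) and Myl9 (0.107), with Myh10 at 0.157 and Myh9 far off at 0.304. Nearest to Myh9 were Urgcp (0.032), Mafk, a small Maf transcription factor (0.035), and Capn1, a calcium-dependent protease (0.035), against 0.21 for Myh9 itself. Nearest to Myh10 were D3Ertd751e (0.039), Mgat5, a Golgi glycosyltransferase (0.048), and Triqk (0.050), against 0.246 for Myh10 itself. The points share their libraries and the KO mean, so these values describe the 10 libraries and carry no p.

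Of 12 tested kinases of the regulatory light chain, a list that is incomplete here, 3 rose and 0 fell. Over all tested genes 6.84% rose and 7.43% fell. Mylk, the calcium- and calmodulin-dependent light chain kinase, averaged 1837 CPM in the KO libraries and 1474 CPM in the WT libraries, a log2 difference of 0.32 (SE 0.05, edgeR adjusted p = 0.00181). Mylk4, a related kinase, rose by 0.30 on the log2 scale, to 492 CPM in the KO libraries, against 401 CPM in the WT libraries (edgeR adjusted p = 0.00398). Cdc42bpa, a kinase controlled by Cdc42, averaged 137 CPM in the KO libraries and 119 CPM in the WT libraries (log2 0.20, edgeR adjusted p = 0.0251), a call lost without KO replicate 1, 2, 4 or 5 (edgeR adjusted p 0.0531 to 0.0723).

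Of 9 tested genes of the myosin phosphatase and its regulators, 0 rose and 1 fell, against 6.84% and 7.43% of all tested genes. The other 8 did not pass. The median log2 difference was 0.032, against -0.0232 over all tested genes. The gene that fell was Ppp1r14b, a phosphatase inhibitor, at 17.2 CPM in the KO libraries and 24.4 CPM in the WT libraries (log2 -0.51, SE 0.09, edgeR adjusted p = 0.00351).

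Of 12 tested proteins that fold myosin II or bind its filaments, 1 rose and 2 fell, against 6.84% and 7.43% of all tested genes. The median log2 difference of the list was -0.032. Svil, a supervillin that ties myosin II to the membrane, averaged 263 CPM in the KO libraries and 218 CPM in the WT libraries (log2 0.28, edgeR adjusted p = 0.0234), a call lost without KO replicate 1, 3, 4 or 5 or WT replicate 5 (adjusted p 0.0527 to 0.0617). Limch1, an activator of non-muscle myosin IIA, fell to 281 CPM in the KO libraries, against 359 CPM in the WT libraries (log2 -0.36, edgeR adjusted p = 0.0109), but not with total counts (adjusted p = 0.0731). Sept9, a septin, averaged 155 CPM in the KO libraries and 197 CPM in the WT libraries (log2 -0.35, edgeR adjusted p = 0.00993).

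Of the 17 genes of actin and the thin filament, 1 rose and 1 fell, near the 6.84% and 7.43% of all tested genes. The median log2 difference of the list was 0.079. Cald1, caldesmon, which binds both actin and myosin, averaged 2177 CPM in the KO libraries and 1794 CPM in the WT libraries (log2 0.28, SE 0.05, edgeR adjusted p = 0.00327). Tagln passed at a log2 difference of -0.25 (edgeR adjusted p = 0.0458) but was listed at 21.7 CPM in the KO libraries and 25.8 CPM in the WT libraries, a low level for a major smooth muscle protein, and it lost the call in 16 of 19 alternatives. Of 19 tested myosins outside class II, 2 rose and 0 fell, against the same background, with a median of -0.054. Myo1f, a class I myosin of leukocytes, averaged 3.07 CPM in the KO libraries and 1.14 CPM in the WT libraries (log2 1.43, SE 0.19, edgeR adjusted p = 0.00084), and Myo7a 9.70 CPM in the KO libraries and 6.81 CPM in the WT libraries (log2 0.51, adjusted p = 0.00734). With KO as 1 sample, 0 of 75 tested genes of the myosin lists, striated muscle chains included, passed the edgeR test, and 2 had an unadjusted p under 0.05, against 585 of 15710 over all tested genes.

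**Figure D5:**
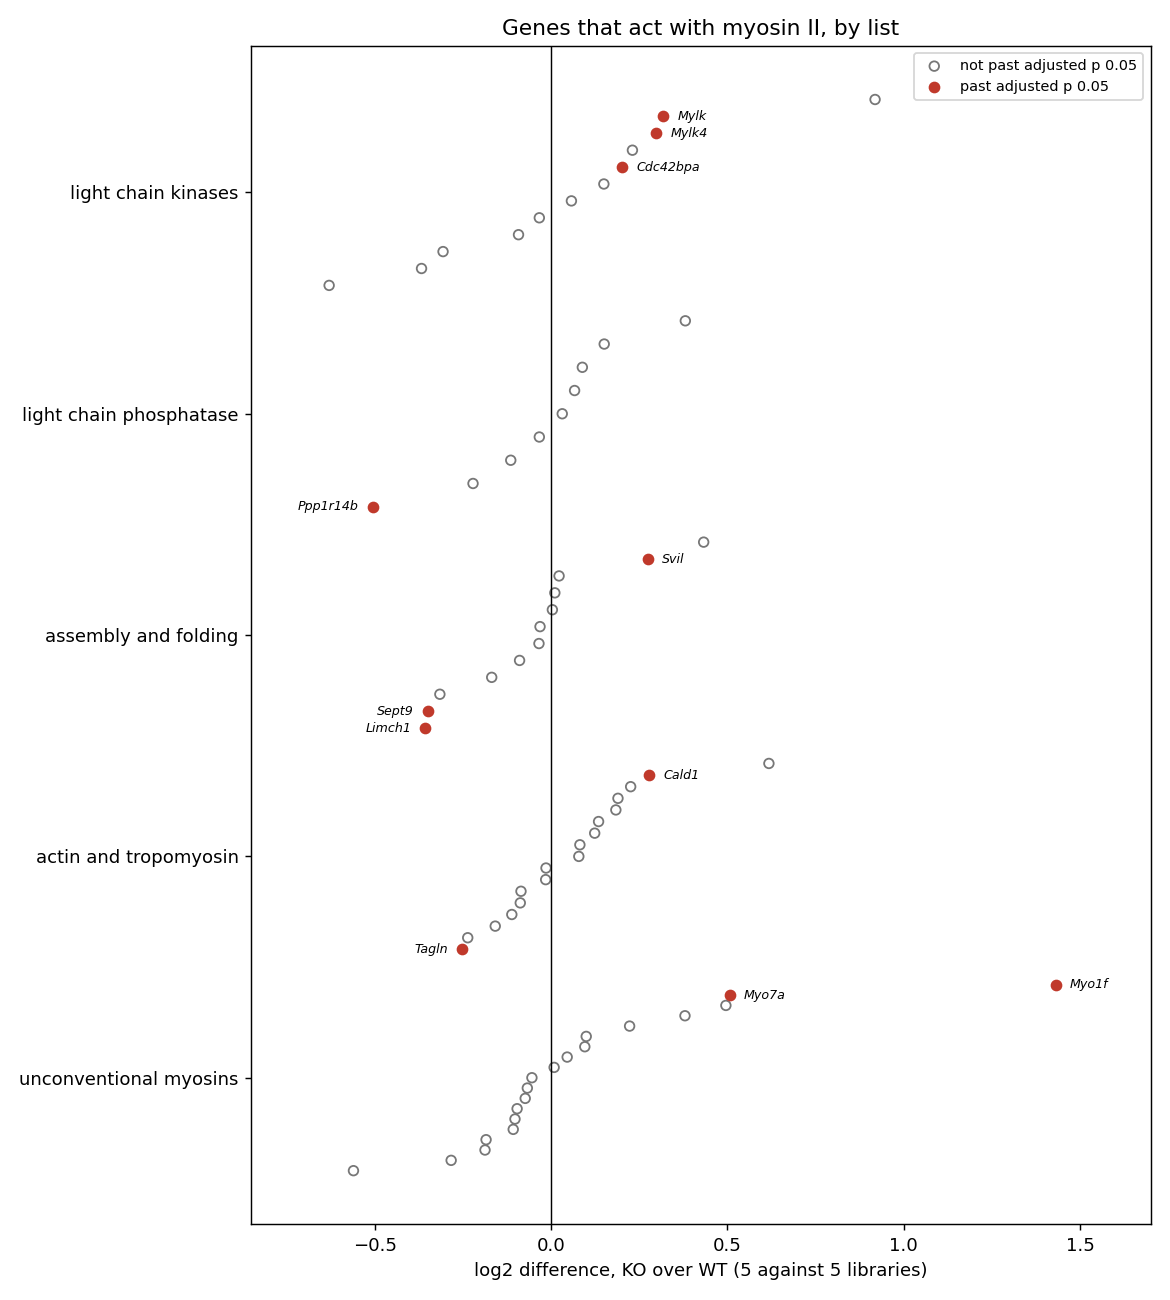
Log2 difference in CPM, KO over WT, of each tested gene that acts with myosin II, by list, from 5 KO against 5 WT libraries; filled points passed an edgeR adjusted p of 0.05 and are named. Filled points lie on both sides of 0 among the assembly proteins and the thin filament genes.

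The striated muscle heavy chains and light chains, which mark heart or skeletal muscle, were low beside Myh9, Myh10 and Myh11. Of 10 such heavy chains, Myh6, the cardiac alpha chain, had enough counts to be tested, with 322 to 400 counts in the KO libraries and 18 to 1399 in the WT libraries, and the list summed to 13.4 to 15.6 CPM in the KO libraries and 3.09 to 61.2 CPM in the WT libraries, with the highest sum in WT replicate 2. The 8 other light chains, of which 5 were tested, summed to 19.4 to 23.1 CPM in the KO libraries and 15.6 to 40.0 CPM in the WT libraries. In edgeR 0 of these tested genes passed, with 0 at an unadjusted p under 0.05 and 0 called by DESeq2, while limma-voom called 1 of the light chains. The 9 cardiac and skeletal muscle markers, of which 7 were tested, summed to 128 to 133 CPM in the KO libraries and 99.3 to 182 CPM in the WT libraries. Of them 0 passed in edgeR, with 2 lower at an unadjusted p under 0.05 and 1 called lower by DESeq2. Limma-voom called 3 of them higher and 2 lower. Over all 15710 tested genes DESeq2 called 2975 and limma-voom 6477.

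Some markers of several other cell types differed by label, as Myh10 did, and their part in its difference was not tested. Over all tested genes 6.84% rose and 7.43% fell in edgeR. Of 10 fibroblast markers, 4 rose, and the list summed to 4000 to 4049 CPM in the KO libraries, all above the 3347 to 3749 CPM of the WT libraries. At an unadjusted edgeR p under 0.05, 5 of them were higher and 1, Col1a1, was lower (log2 -0.34). Of 9 nerve and Schwann cell markers, 5 rose, with sums of 55.0 to 58.9 CPM in the KO libraries and 22.6 to 40.7 CPM in the WT libraries. Of 7 tested lymphocyte markers, 4 rose, with sums of 276 to 281 CPM in the KO libraries and 9.74 to 27.3 CPM in the WT libraries. Of 10 macrophage and leukocyte markers 3 rose, but the list as a whole did not separate the groups. Its sums were 326 to 335 CPM in the KO libraries, inside the 224 to 395 CPM of the WT libraries. All 5 red cell markers fell, with sums of 19.2 to 21.3 CPM in the KO libraries and 65.8 to 327 CPM in the WT libraries. With KO as 1 sample all of these marker calls were lost except that of the lymphocyte gene Ighm, an immunoglobulin heavy chain, named after its value was seen (edgeR adjusted p = 0.0413). The 10 endothelial markers summed to 333 to 345 CPM in the KO libraries and 199 to 768 CPM in the WT libraries. Of them 0 passed in edgeR, with 1 lower at an unadjusted p under 0.05, 0 called by DESeq2 and 5 called lower by limma-voom. Over all 15710 tested genes DESeq2 called 2975 and limma-voom 6477. Of 10 smooth muscle markers Tagln alone passed in edgeR, and every marker of these lists had counts.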

How the data were processed

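For each library the authors deposited 1 table of raw read counts by gene, made from Illumina TruSeq RNA libraries of frozen aorta, per the labels' protocols. The submitters' processing notes list mm8, mm9 and Bowtie 0.12.2 without saying what each was used for. How reads were assigned to genes, by which annotation and with what regard to strand, is not given in the sources used here. Of 35667 identifiers, 35519 matched GENCODE M21 (GRCm38), which gave coordinates, lengths and sequences; those builds are older than the identifiers.

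Counts were compared with edgeR 4.0.16 (R 4.3.3), using robust quasi-likelihood F tests, TMM factors and filterByExpr (minimum count 10, minimum total 15), 5 KO against 5 WT libraries with no covariate, and Benjamini-Hochberg adjustment over 15710 genes at 0.05. Standard errors were taken as the log2 difference over the root of the F statistic. Depth was 21242030 to 26694590 counts per library. Identities and near-identical genes came from Biopython 1.88 and blastn 2.17.0 (at least 90% over at least 100 bases). Both kinds of fit were tested on simulated data. Where all simulated KO libraries were drawn from 1 source, most calls of the 5 against 5 fit were unchanged genes. Few of those of the summed fit were. The simulation changed a small part of the genes and gave every gene the same dispersion. Its KO libraries of 1 source differed by counting error alone, unlike those here. The part of unchanged genes among calls depends on these settings and does not carry over to the calls reported here.

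Some genes of the lists are not reported here and are left out of the counts. The members and the lists were chosen with earlier results of these data known. Named genes are the 8 members, up to 4 tested genes of smallest p per list, and the 3 genes nearest in pattern to Myh9, Myh10 and Myh11. Ovgp1, Myom1, Acta2, Myocd, Pln and Col1a1 are named outside this rule. Alternatives were other size factors, no filter, DESeq2 1.42.0, limma-voom (limma 3.58.1), a replicate block, KO counts summed, libraries left out and other lengths. The summed fit without each WT library, the exon union length and the ratio to Myh11 were added after seeing the data.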

Additional observations from a re-analysis of the deposited data

Results flagged for a closer look

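In groups of 5 libraries, the gap of the highest or lowest library to its neighbour was set against the whole range of the group, with 0.71 as the limit. Over 34 groups of values of the members, 3 passed it, where chance flags about 1 in 20. Myl12a was low in KO replicate 4, at 482 CPM against 525 to 529 CPM in the other KO libraries, a gap of 0.920 of the range. Myl12a was high in WT replicate 1, at 601 CPM, with a gap of 0.777 of the range. The Myh10 share of heavy chain transcripts was high in WT replicate 1, at 3.80%, with a gap of 0.731 of the range. It stayed below every KO library.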

How the results depend on the processing

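The count of genes past the threshold, 2242 (1075 higher and 1167 lower), was 6477 with limma-voom, 1319 with the replicate block, 4358 without WT replicates 1 and 3, 7 with KO summed, 1 to 5 with KO summed and a WT library left out, and 1291 to 2667 without single libraries. The split was 1561 higher and 493 lower with total counts, and 1319 and 741 with upper quartile factors. The replicate numbers were not taken to pair the libraries. In their deviations from the group means, same-numbered KO and WT libraries correlated at -0.0397 to 0.0424. The KO libraries deviate little beyond counting error, so these values cannot show whether the libraries were paired. With the block, Cdc42bpa and Tagln lost their calls.

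Without single libraries, log2 differences ran from 0.406 to 0.545 for Myh10, -0.048 to 0.096 for Myh9, 0.013 to 0.123 for Myh11, -0.036 to 0.391 for Myh14, -0.253 to -0.142 for Myl6, -0.167 to 0.007 for Myl9 and -0.027 to 0.082 for Myl12b. Myl12b was -0.008 without WT replicate 5. With KO summed, Myh10 was 0.461, and 0.533, 0.451, 0.501, 0.400 and 0.426 without WT replicates 1 to 5 in turn (adjusted p 0.999 to 1.0). That fit without WT replicate 2 gave -0.051 for Myh9 and -0.039 for Myh14, without WT replicate 3 it gave 0.007 for Myl9, and for Myl12b -0.033 without WT replicate 4 and -0.009 without WT replicate 5. With limma-voom, Myh9 was -0.065, Myh14 -0.265, Myl9 0.114, Myh11 0.181 (adjusted p = 0.00137) and Myl12b 0.162 (adjusted p = 0.00802). Myl9 was 0.005 with total counts and 0.121 without WT replicates 1 and 3, and Myh11 was then 0.201. Myl12a kept its direction in every alternative. Among other genes, Myh6 turned to 0.807 with limma-voom, 1.45 with the block and 1.88 without WT replicate 2 (-0.494 to 1.88 over all libraries left out), Myl6b to 0.080 with limma-voom and 0.095 without WT replicates 1 and 3, and Myl4 to 0.007 with limma-voom and 0.067 without WT replicate 2 (-0.372 to 0.067). The Myh10 share differed by 1.24 percentage points with no length correction, and by 1.03 to 1.13 without single libraries. The causes of these shifts were not tested. At 11 to 56 counts, depth limits Myh14, and the near-identical KO libraries limit every comparison.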
